A study of Mus musculus with 5 samples.

Results

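Oligodendrocyte precursor cells are the glial progenitors from which myelinating oligodendrocytes arise, and 8 genes that mark them or their first steps of differentiation were followed here in mouse cerebellar tumours. The genes were taken by symbol: Pdgfra, Cspg4, Olig1, Olig2, Gpr17, Bcas1, Nkx2-2 and Ptprz1. All 8 were among the 17739 genes of the deposited expression table. The 5 RNA-seq libraries, called tumours 1, 5, 8, 14 and 15 after their titles, form 1 group of genotype Math1-Cre;Gli2A on a doxycycline (DOX) diet from conception (embryonic day 0), in which GLI2 is active per the labels. Every library carries the same alleles (Math1-Cre and R26;Gli2A) and the same diet, and no control group was analysed here, so the data give levels and differences between tumours, not an effect of GLI2. Math1-Cre acts in granule neuron progenitors, so glial cells are not the cells it is known to target. The animals' age is not given, and the labels do not say whether each number is a separate animal, so the spread between libraries may be partly technical.

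In the developing brain, precursor cells divide under platelet-derived growth factor (PDGF), which acts through the receptor encoded by Pdgfra, and they carry the proteoglycan NG2, encoded by Cspg4. The basic helix-loop-helix factors OLIG1 and OLIG2 set the lineage, NKX2-2 promotes differentiation, GPR17 is a receptor that appears briefly in committed precursors, and BCAS1 marks cells at the start of myelination. The members are not exclusive to the lineage: OLIG2 is also known in progenitor-like cells of Sonic hedgehog (SHH) medulloblastoma, PDGFRA in fibroblasts, NG2 in pericytes and PTPRZ1 in astroglia. Values below are the deposited log2 values, read as regularised-log values, in which 1 unit is a 2-fold difference.

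The precursor genes were expressed in all 5 tumours and most of them stood highest in tumour 1. Tumour 1 held the highest value for 6 of the 8 genes, against 20.2% of the 13691 genes whose mean reached 5. It was above the median of the other 4 tumours for 8 of 8, against 52% of genes. It was also first or second of 5 for all 8, for which the share over all genes was not taken. Tumour 5 held the lowest value for 5 of the 8, against 24.6% of genes. Genes of mature myelin had the opposite order of these tumours: tumour 1 was below tumour 5 for all 12 myelin genes listed and above it for all 8 precursor genes. The median difference of tumour 1 minus tumour 5 was 0.46 for the precursor genes, -1.12 for the myelin genes and 0.01 for all 13691 genes, of which 52.2% were higher in tumour 1.

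**Figure D1:**
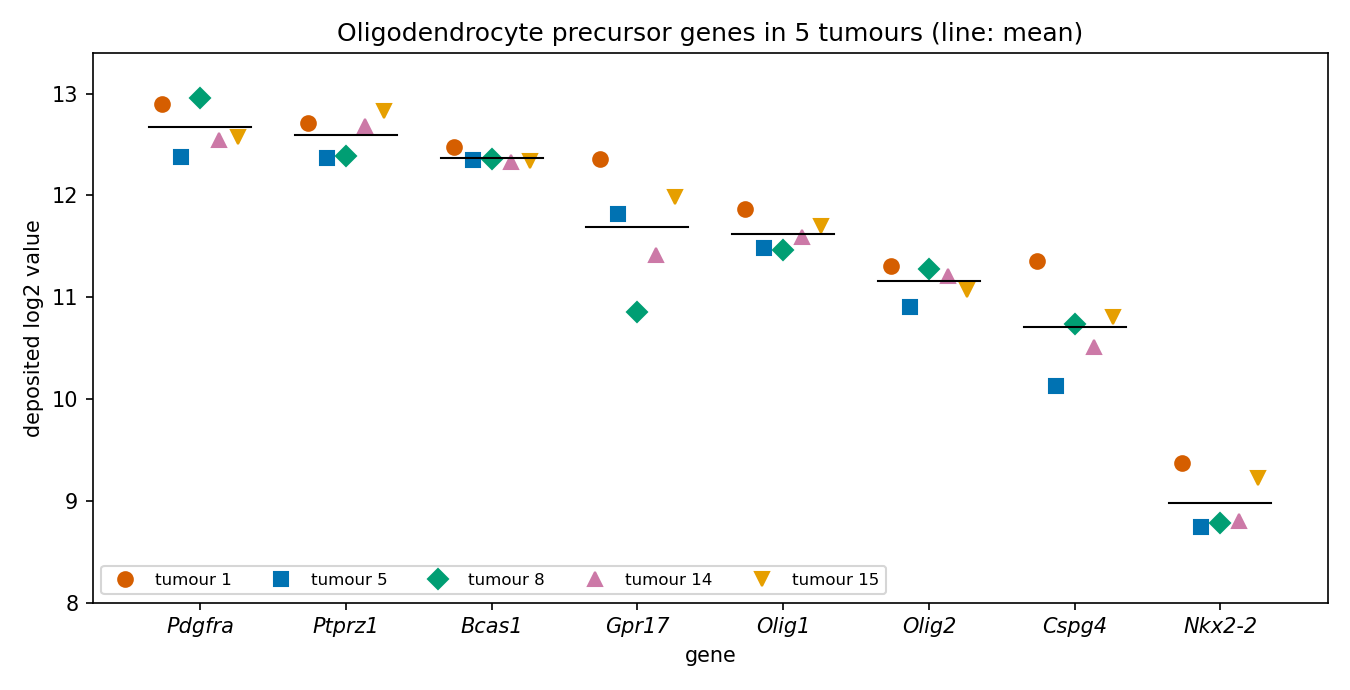
Deposited log2 value (vertical axis) of the 8 precursor genes (horizontal axis, by mean) in each of the 5 tumours, shown by symbol, with a line at the mean. Tumour 1 is the highest point for 6 genes, Gpr17 spreads from 10.85 to 12.36, and the Bcas1 points lie between 12.33 and 12.47.

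Promoter sequences are shown for the transcription factor genes Olig2 and Nkx2-2 and for Cspg4, members that were all highest in tumour 1. They run from 250 bases before to 50 bases after the RefSeq start, 5′ to 3′ on the gene's strand, in build GRCm38.p6. Cspg4 is at chr9:56864854-56865153 on the plus strand, Nkx2-2 at chr2:147186353-147186652 on the minus strand and Olig2 at chr16:91225300-91225599 on the plus strand. The Nkx2-2 window lies inside the annotated gene (147177546 to 147194243, 4 transcripts), so its start is not the outermost annotated start. Capitals mark matches to the E-box CANNTG, the core ACAAT of SOX motifs (or ATTGT on the other strand) and the GC box GGGCGG (or CCGCCC), searched on both strands, with no overlap between the matches shown.
Cspg4: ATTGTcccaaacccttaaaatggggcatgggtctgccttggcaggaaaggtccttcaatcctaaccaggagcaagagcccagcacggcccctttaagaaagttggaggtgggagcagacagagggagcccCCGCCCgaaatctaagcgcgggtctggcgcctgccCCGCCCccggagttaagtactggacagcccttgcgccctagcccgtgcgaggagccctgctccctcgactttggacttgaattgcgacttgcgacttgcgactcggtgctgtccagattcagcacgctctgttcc
Nkx2-2: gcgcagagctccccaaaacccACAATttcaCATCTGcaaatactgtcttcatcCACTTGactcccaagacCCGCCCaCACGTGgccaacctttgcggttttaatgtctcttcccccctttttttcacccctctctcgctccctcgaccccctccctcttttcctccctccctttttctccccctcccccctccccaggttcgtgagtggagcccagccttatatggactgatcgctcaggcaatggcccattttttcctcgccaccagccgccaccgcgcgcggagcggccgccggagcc
Olig2: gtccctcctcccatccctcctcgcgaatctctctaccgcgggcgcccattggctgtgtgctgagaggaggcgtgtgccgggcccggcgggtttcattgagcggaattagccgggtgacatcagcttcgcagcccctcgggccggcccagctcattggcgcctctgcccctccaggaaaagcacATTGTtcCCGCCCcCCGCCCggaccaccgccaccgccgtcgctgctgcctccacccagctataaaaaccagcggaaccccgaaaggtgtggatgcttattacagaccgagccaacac
The Nkx2-2 window holds 3 E-boxes, 1 SOX core and 1 GC box, whereas those of Cspg4 and Olig2 each hold 1 SOX core, 2 GC boxes and no E-box. In Olig2 the SOX core and both GC boxes lie within 67 bases before the start. Of all 32851 promoter windows of this length, 72.3% hold an E-box, 31.0% a SOX core and 35.7% a GC box, so such matches are common. The Olig2 window has 25 CG dinucleotides and the other pair 17 each, against a median of 7. The GLI motif GACCACCCA, which 0.253% of all windows hold, was in none of the windows of the 5 members in the RefSeq table (these 3, Pdgfra and Ptprz1). Entries for Olig1, Gpr17 and Bcas1 are missing.

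Pdgfra encodes the receptor through which PDGF drives precursor division (GRCm38 chromosome 5, 75152292 to 75198215). It was 12.90 in tumour 1, 12.38 in tumour 5, 12.96 in tumour 8, 12.54 in tumour 14 and 12.58 in tumour 15. Tumours 1 and 8 were high and the other 3 low, and the range was 1.50-fold (mean 12.67 ± 0.25, SD, n = 5). It was the only member highest in tumour 8. Among its ligand genes, Pdgfa, whose product is the main mitogen of these precursors, was also high in tumours 8 (11.59) and 1 (11.51) and lower in tumours 14 (11.31), 5 (10.93) and 15 (10.92). Pdgfd, which encodes a ligand of the sister receptor, had another order, with its highest value in tumour 5 (7.63) and its lowest in tumour 1 (6.59). Of the 5 genes of the list of PDGF ligands with the sister receptor gene Pdgfrb, 0 were highest in tumour 1, beside 20.2% of all genes.

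Cspg4 (chromosome 9, 56865033 to 56899870) was 11.36 in tumour 1, 10.13 in tumour 5, 10.74 in tumour 8, 10.51 in tumour 14 and 10.81 in tumour 15. Tumour 1 stood 1.47-fold above the next and tumour 5 was the lowest, 2.35-fold below tumour 1 (mean 10.71 ± 0.45, SD, n = 5). Cspg4 and Gpr17 were the 2 of 8 members with a range over 2-fold, against 3.79% of genes whose mean reached 5. Without tumour 1 or tumour 5 only Gpr17 had such a range, and without tumour 8 only Cspg4. Pericytes also express Cspg4, and mural cell markers moved partly with it: 4 of 8 were highest in tumour 1, against 20.2% of genes. Among the 4 were Rgs5 (11.44 there, 10.83 to 11.36 elsewhere) and Anpep (9.52, against 8.10 to 8.80). Vtn, another pericyte gene, was highest in tumour 5 (10.63) and Des was flat (5.96 to 6.09). The summed level of the list, the log2 of its added linear values, ran from 12.35 to 12.75 and was highest in tumour 1, and no marker was at 0. The part of mural cells in the Cspg4 values was not tested.

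Ptprz1 encodes a receptor-type phosphatase with chondroitin sulphate chains (chromosome 6, 22875502 to 23052916). It was 12.71 in tumour 1, 12.37 in tumour 5, 12.39 in tumour 8, 12.68 in tumour 14 and 12.83 in tumour 15. It was thus the only member highest in tumour 15, with tumours 5 and 8 low (mean 12.60 ± 0.21, SD, n = 5). Its ligand genes did not share this order: Ptn was highest in tumour 5 (12.53) and lowest in tumour 8 (12.24), and Mdk was highest in tumour 8 (11.18) and lowest in tumour 15 (10.82). Tnc, an extracellular partner, was highest in tumour 15 (11.40) and lowest in tumour 5 (9.79), a 3.06-fold range. Neural stem cell genes, some of which are shared with astroglia, were highest in tumour 15 for 4 of 7, against 21.4% of genes, and their median ran from 10.18 in tumour 5 to 11.05 in tumour 15.

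The OLIG genes lie next to each other on chromosome 16, with Olig2 at 91225457 to 91228677 and Olig1 at 91269772 to 91271933, 41.1 kb apart. Olig1 was 11.87 in tumour 1, 11.48 in tumour 5, 11.46 in tumour 8, 11.59 in tumour 14 and 11.70 in tumour 15. Olig2 was 11.30 in tumour 1, 10.91 in tumour 5, 11.28 in tumour 8, 11.21 in tumour 14 and 11.07 in tumour 15. Both genes were highest in tumour 1 and spanned a range close to 1.3-fold (1.33-fold for Olig1, 1.32-fold for Olig2). Their patterns parted in tumour 8, where Olig1 was at its lowest and Olig2 was only 0.025 below its highest value. Per length, Olig1 exceeded Olig2 by 0.69 ± 0.18 (SD, n = 5), the least in tumour 8 (0.41) and the most in tumour 15 (0.85). The difference was above 0 in 5 of 5 tumours (exact two-sided sign-flip permutation p = 0.0625, adjusted 0.113 over 9 pairs), and 0.0625 is the smallest p that this test can give for 5 tumours.

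Nkx2-2, a homeodomain factor gene (chromosome 2, 147177546 to 147194243), was the member of lowest deposited mean, at 8.98 ± 0.29 (SD, n = 5). It was 9.37 in tumour 1, 8.74 in tumour 5, 8.78 in tumour 8, 8.81 in tumour 14 and 9.22 in tumour 15. The values formed a high pair, tumours 1 and 15, and a low group of 3 within 0.066 of each other. Sox10, another transcription factor gene of the whole oligodendrocyte lineage, also had its highest values in tumours 1 (10.69) and 15 (10.35), with 10.10 to 10.19 elsewhere.

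Gpr17 varied more than any other member (chromosome 18). It was 12.36 in tumour 1, 11.82 in tumour 5, 10.85 in tumour 8, 11.41 in tumour 14 and 11.98 in tumour 15. The range was 2.84-fold and the SD, 0.58, exceeded that of 99.0% of genes whose mean reached 5. The low tumour was tumour 8, which for Pdgfra was the highest, and tumour 5, lowest for 5 members, was in the middle. Lims2, annotated on the opposite strand and overlapping Gpr17, was also lowest in tumour 8 (7.76) but highest in tumour 5 (8.44). The strand setting of the counting is not given in the sources used here, so reads of the 2 genes may not be fully separated. The same holds for Nkx2-2 and Bcas1, whose overlapping opposite-strand genes in the table had means of 4.42 and 4.77.

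Bcas1 was nearly level across the tumours. It was 12.47 in tumour 1, 12.35 in tumour 5, 12.35 in tumour 8, 12.33 in tumour 14 and 12.34 in tumour 15. Tumour 1 stood above the other 4, which lay within 0.028 of each other, but the whole range was only 1.11-fold (chromosome 2, 170346991 to 170427845). Its SD of 0.059 was larger than that of 16.7% of genes, whereas those of the other 7 members all exceeded the typical SD of 0.11. The median SD of the 8 genes was 0.23.

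Levels of different genes can be compared only per length, so log2 of the exon length in kb was subtracted. On that scale the order of means was Olig1 (10.51 ± 0.17, SD, n = 5), Bcas1 (10.45 ± 0.06), Olig2 (9.82 ± 0.16), Pdgfra (9.34 ± 0.25), Gpr17 (9.31 ± 0.58), Ptprz1 (8.76 ± 0.21), Nkx2-2 (7.46 ± 0.29) and Cspg4 (7.13 ± 0.45). Neighbours in this order and the direction of their difference come from the same 5 tumours, so every mean difference is above 0 by construction. The p-values below therefore do not test the order. Of the 7 neighbouring pairs, 4 kept 1 sign in 5 of 5 tumours: Bcas1 minus Olig2 (0.64 ± 0.15), Olig2 minus Pdgfra (0.47 ± 0.13), Ptprz1 minus Nkx2-2 (1.30 ± 0.19) and Nkx2-2 minus Cspg4 (0.33 ± 0.25). The exact sign-flip permutation test gave p = 0.0625 for each (adjusted 0.109 over 7 pairs). The other 3 pairs changed sign between tumours: Olig1 minus Bcas1 was 0.053 ± 0.13 (exact permutation p = 0.438, adjusted 0.51), Pdgfra minus Gpr17 0.036 ± 0.67 (p = 1, adjusted 1) and Gpr17 minus Ptprz1, above 0 in 4 of 5 tumours, 0.54 ± 0.49 (p = 0.125, adjusted 0.175). With the longest annotated transcript in place of all exons, Bcas1 passed Olig1, Pdgfra passed Olig2 and Ptprz1 passed Gpr17, so the order among these depends on the length taken. Bcas1 minus Olig2 then became 0.99, Pdgfra minus Gpr17 0.59 (exact permutation p = 0.0625) and Nkx2-2 minus Cspg4 0.21, no longer of 1 sign in all tumours (exact permutation p = 0.25).

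**Figure D2:**
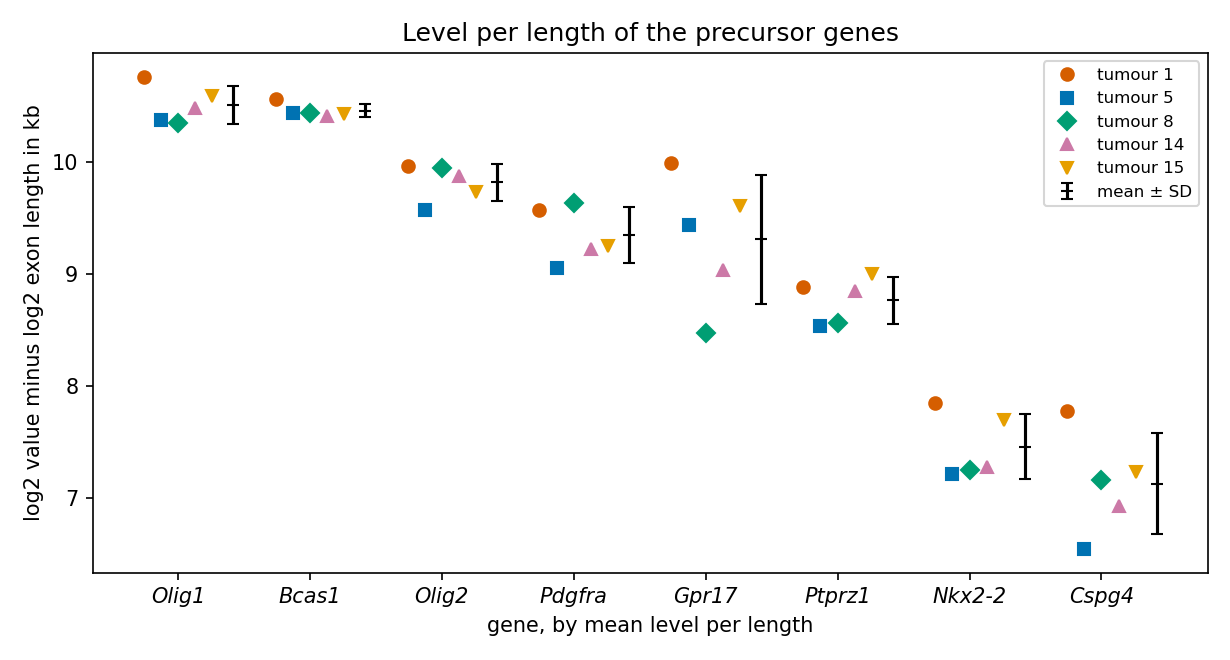
Log2 value minus log2 exon length in kb (vertical axis) for each precursor gene (horizontal axis, ordered by mean) in the 5 tumours, with the mean ± SD beside the points. Olig1 and Bcas1 lie together at the top, Nkx2-2 and Cspg4 at the bottom, and the Gpr17 points overlap those of Pdgfra and Ptprz1.

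Members were also paired with a related gene of another role or cell type, per length. Pdgfra exceeded Pdgfrb, the pericyte and fibroblast receptor gene, by 1.83 ± 0.23 in 5 of 5 tumours, and Gpr17 exceeded Enpp6, a gene of newly formed oligodendrocytes, by 2.68 ± 0.65 in 5 of 5, from 1.89 in tumour 8 to 3.68 in tumour 1. Olig2 exceeded Sox10 by 1.13 ± 0.24 in 5 of 5, and Ptprz1 lay below Ptn in 5 of 5 (difference -1.82 ± 0.25). For these 4 pairs the exact sign-flip permutation test gave p = 0.0625 each (adjusted 0.113). Olig2 minus Sox2, a stem cell factor gene, was 0.37 ± 0.32, below 0 only in tumour 15 (-0.18). Nkx2-2 minus Nkx6-2, a later factor of the lineage, was 0.47 ± 0.39, below 0 only in tumour 8 (-0.0064), and 0.91 with the longest transcript. Cspg4 minus Pdgfrb was -0.39 ± 0.41 and above 0 only in tumour 1 (0.27), and with the longest transcript the mean was 0.15. For these 3 pairs the exact permutation p was 0.125, adjusted 0.141. Bcas1 minus Mbp, a myelin protein gene, was -0.55 ± 0.63 and also above 0 only in tumour 1 (0.18), with -1.36 in tumour 5 (exact permutation p = 0.188, adjusted 0.188). Its mean was -0.34 without tumour 5 and -1.01 with the longest transcript (exact permutation p = 0.0625).

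Other genes of the lineage were grouped by stage. Of 14 further precursor genes, 11 were highest in tumour 1, against 20.2% of genes whose mean reached 5. All 14 were above the median of the other 4 tumours there, against 52% of genes. In tumour 5, 9 of the 14 were lowest, against 24.6%. Their median deviation in tumour 1 was 0.34, beside 0.34 for the 8 members and 0.0059 over all genes of that mean or more. An example is C1ql1, a secreted synaptic organiser gene (12.24 in tumour 1, 11.85 in tumour 5). Neu4, a sialidase gene, was also highest in tumour 1 (7.40), but its lowest value was in tumour 8 (6.77). In tumour 5 it was 7.27, above the median of the other tumours. Vcan, a proteoglycan gene, was highest in tumour 15 (12.84). None of the 14 had a range over 2-fold, which is near the share of 3.79% over all genes.

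Genes of committed precursors and new oligodendrocytes were spread over the tumours in their highest values. Of 11, 2 were highest in tumour 1 (Itpr2, a calcium channel gene, at 11.68, and the repressor gene Zfp488 at 8.16), 3 in tumour 5, 2 in tumour 8 and 4 in tumour 15, beside 20.2% of all genes in tumour 1, 24.1% in tumour 5 and 21.4% in tumour 15. In tumour 1, 5 of the 11 were lowest, against 16.9% of genes. In tumour 15, 8 lay above the median of the other tumours, beside 6515 of all 13691 genes. In tumour 14 only 1 of the 11 did, beside 6870 of all genes. Their median deviation in tumour 1 was 0.0068. Fyn, a kinase gene, was flat at 12.48 to 12.59, and Sirt2, a deacetylase gene, was highest in tumour 5 (12.14) and lowest in tumour 1 (11.73). The 4 genes listed as inhibitors of differentiation (Id2, Id4, Hes1 and Hes5) were all highest in tumour 15, against 21.4% of genes. In tumour 1, 0 of 4 lay above the median of the other tumours, against 52% of genes. Id2 was 11.14 in tumour 15 and 10.76 in tumour 1.

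Mature myelin genes were highest in tumour 5 for all 11 that reached a mean of 5, against 24.1% of genes, and lowest in tumour 1 for 8, against 16.9%. Mbp was 13.46 in tumour 1, 14.88 in tumour 5, 14.50 in tumour 8, 13.96 in tumour 14 and 13.61 in tumour 15. From high to low the order of tumours was thus 5, 8, 14, 15 and 1. Of the 11, 6 ranged over 2-fold, against 3.79% of genes (among them Mbp, Mag, Mog, Mal and Mobp, up to 3.67-fold for Mobp). Opalin, under a mean of 5, was 4.56 in tumour 1 and 5.48 in tumour 5.

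**Figure D3:**
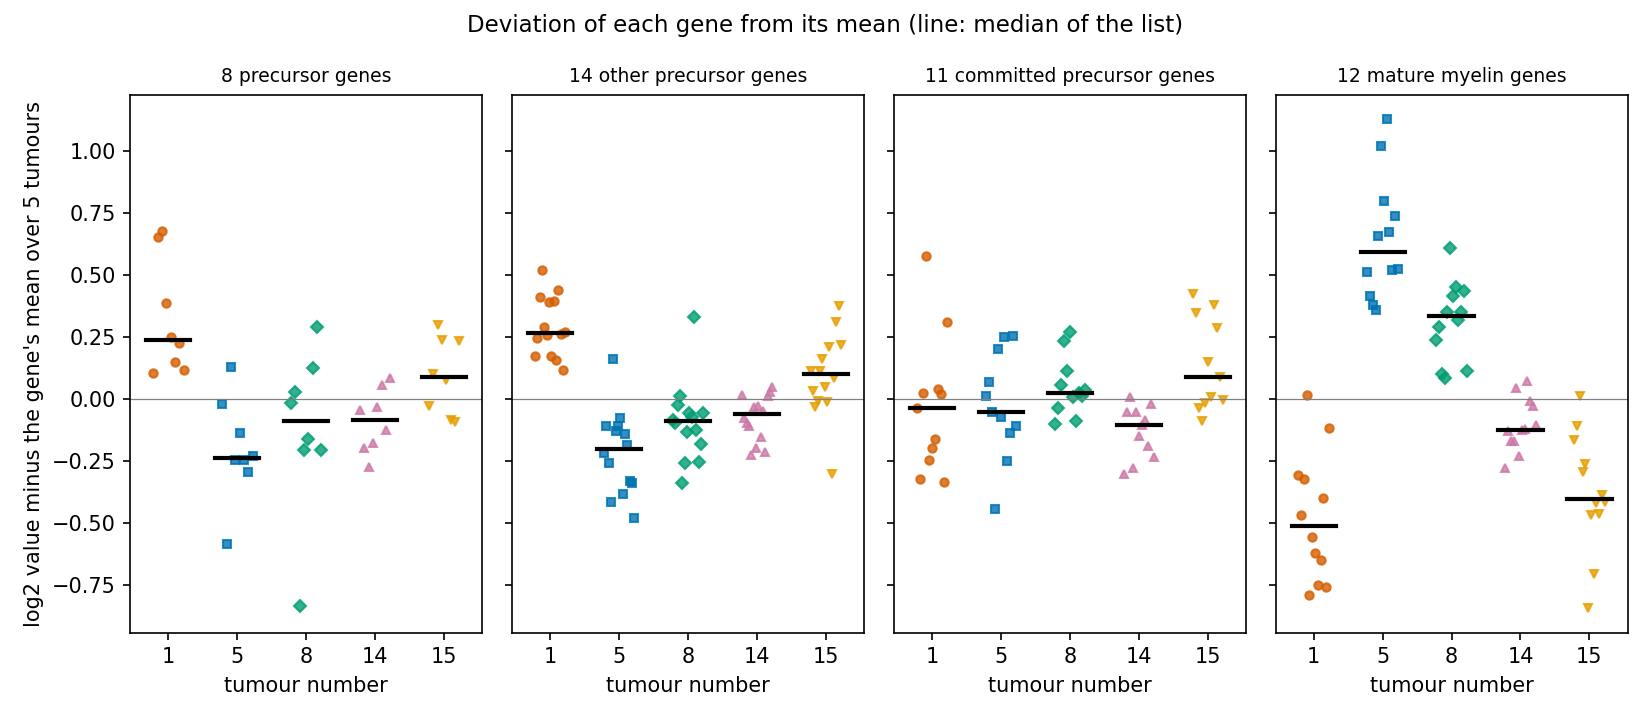
Each point is 1 gene's log2 value minus its mean over the 5 tumours (vertical axis), by tumour number (horizontal axis), in 4 panels for the 8 precursor genes, 14 further precursor genes, 11 genes of committed precursors and 12 mature myelin genes, with a line at the median of the list. Both precursor lists are high in tumour 1, with median deviations from the other tumours of 0.34 and 0.34, while the myelin genes are low there and high in tumours 5 and 8.

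The balance of the 2 lists was taken as the median of the 8 precursor genes minus the median of the 12 myelin genes, per length. The 8 include genes of committed cells, such as Gpr17 and Bcas1, so their median does not stand for the earliest stage alone. It was 2.06 in tumour 1, -0.14 in tumour 5, 0.21 in tumour 8, 0.87 in tumour 14 and 1.62 in tumour 15 (mean 0.93 ± 0.93, SD, n = 5). The precursor median was thus the higher in 4 tumours, and tumours 1 and 5 were 2.20 apart. Without length subtraction the values ran from 0.64 in tumour 5 to 2.20 in tumour 1, and with means over genes in place of medians the value in tumour 5 was 0.38, so its sign depends on both choices. With the longest transcript it was -0.18. The myelin genes varied more: the summed level of the precursor genes varied 1.35-fold and that of the myelin genes 2.54-fold. These are bulk libraries, in which fewer cells of a type and less RNA per cell cannot be told apart.

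Tumours 1 and 5 also stood apart in other gene groups. Immediate early genes, which tissue dissociation can induce, were lowest in tumour 1 for 8 of 8, against 16.9% of genes whose mean reached 5. Their summed level there was 15.90, against 16.37 to 16.57 elsewhere. Microglia markers were highest in tumour 5 for 7 of 8 (sum 13.09, against 12.32 to 12.54), and endothelial markers for 5 of 7 (12.72, against 12.04 to 12.42). The share over all genes was 24.1%. SHH target genes were lowest in tumour 5 for 7 of 8, against 24.6% of genes (sum 16.02, against 16.32 to 16.59). Their sum was highest in tumour 1, as for the precursor genes, and varied 1.48-fold. Of the 8, 3 were highest in tumour 1, against 20.2% of genes. Another 3 were highest in tumour 8 and 2 in tumour 14, beside 2538 and 2160 of all 13691 genes. The median of the list was highest in tumour 8 (13.00, against 12.92 in tumour 1). All 8 were higher in tumour 1 than in tumour 5, against 52.2% of genes, with a median difference of 0.56. Markers of fibroblasts, which can express Pdgfra, were highest in tumour 15 for 4 of 5, against 21.4% of genes, and in tumour 8 for the other. Their sums ran from 13.81 in tumour 5 to 14.78 in tumour 15. Astrocyte markers were highest in tumour 5 for 4 of 8, against 24.1% of genes (sums 14.47 in tumour 1 to 14.81 in tumour 5). No marker of these lists was at 0, and their part in the precursor values was not tested. The summed level of the 6 granule progenitor genes varied less (16.05 to 16.18), but a sum follows its highest genes, above all Zic1. Zic1 was 15.02 to 15.15, whereas Atoh1, also called Math1, ranged 2.81-fold, from 8.00 in tumour 1 to 9.49 in tumour 15. Library medians over all genes lay between 8.51 and 8.58.

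**Figure D4:**
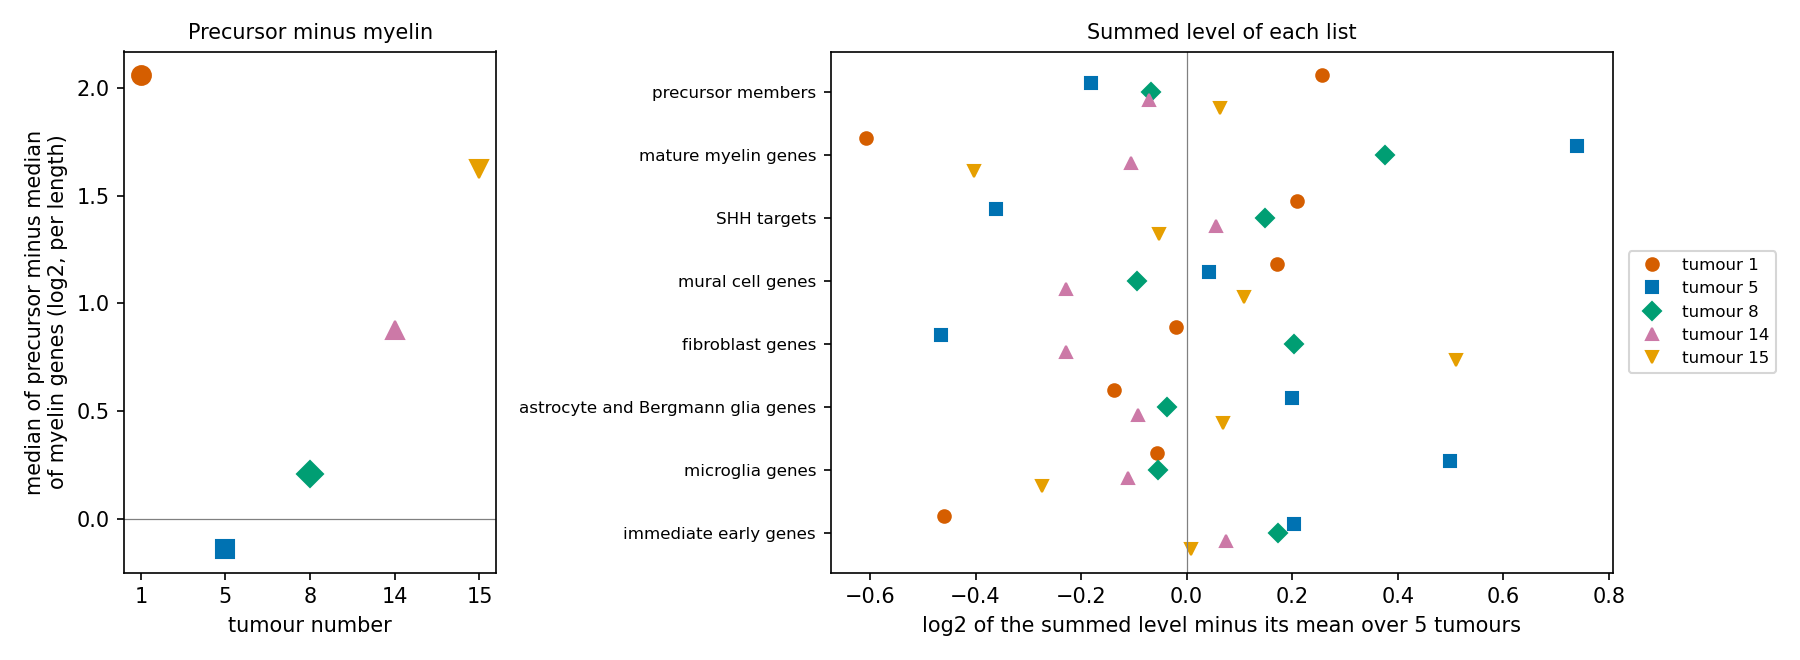
Left, median of the precursor genes minus median of the myelin genes, log2 per length (vertical axis), by tumour number (horizontal axis). Right, log2 of the summed level of each gene list minus its mean over the 5 tumours (horizontal axis) for 8 lists (vertical axis). Tumour 1 is highest for the precursor genes, SHH targets and mural cell genes, and lowest for the myelin, astrocyte and immediate early genes. Tumour 5 is lowest for precursor genes, SHH targets and fibroblast genes, and highest for myelin, microglia, astrocyte and immediate early genes.

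The genes whose pattern over the 5 tumours was most like that of a member were sought for the 3 members of largest range, by the root mean square of the difference between values centred on each gene's mean, over 13690 other genes. Among the 5 closest to Cspg4 were Vipr2 (0.060), Adamts15 (0.091) and Mmp17 (0.092), against a median of 0.41 over all genes. Closest to Gpr17 were Galr1 (0.20), Slc16a7 (0.21), Vxn (0.27), Cend1 (0.28) and Zfp493 (0.28), against a median of 0.53, so no gene followed Gpr17 as closely as those followed Cspg4. Closest to Nkx2-2 were AF357359 (0.032), Sned1 (0.049), Hecw1 (0.052), Rian (0.059) and Gxylt2 (0.063), against 0.28. None of these was a member. The nearest member to Gpr17 and to Cspg4 was Nkx2-2, at ranks 92 and 181, and the nearest to Nkx2-2 was Olig1, at rank 102. Pdgfra was at rank 11719 for Gpr17, farther than the typical gene (0.60), and at rank 376 for Cspg4 (0.27).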

How the data were processed

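RNA was taken from papain-digested cerebellar tumour cells and made into strand-specific mRNA libraries, per the labels' protocols. The authors deposited log2 values for 17739 genes. The table's short name and DESeq2 in the submitters' processing notes are the grounds for reading them as regularised-log values; no source states this. Those notes also list STAR (2.4.1), featureCounts, Subread (1.4.6), mm10 and GRCm38, and neither annotation nor strand setting is given in the sources used here. Such values are corrected for library size but not gene length, and low genes are pulled towards their mean. Of 7 columns, 2 matched no sample and were not used, though they may have entered the transformation. Depth is unknown, so no counting interval is given.

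For every gene the value in each tumour, mean, SD and range were taken, and counts of highest and lowest tumours were set beside the share over the 13691 genes whose mean reached 5. Differences of gene pairs within a tumour, per length from GENCODE M21 (GRCm38), were tested by exact permutation of signs (two-sided) with Benjamini-Hochberg adjustment, over 9 chosen pairs and over 7 neighbours in level. A deviation is the value in 1 tumour less the median over the remaining 4. Steps were tested on simulated data. The members, lists (16, with 123 genes, all in the table) and pairs were chosen with earlier results of these data known. Named genes were the members, the genes of the pairs, and in each list the 2 of highest mean, the 1 of lowest mean and those ranging over 2-fold, plus the 5 genes of most similar pattern to each of 3 members. Of these, genes of other cell types are printed only where a result turns on them. A few genes that the rule names are not reported here. Mdk, Hes1, Lims2, Pdgfb and Pdgfc were named outside this rule, after their values were seen. Alternatives were leaving out each tumour, centring libraries on their medians, other filters, other length corrections and means for medians. Python 3.11.15, numpy 2.4.6 and pandas 2.3.3 were used.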

Additional observations from a re-analysis of the deposited data

Results flagged for a closer look

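Bcas1 was 12.47 in tumour 1, far from the other 4 tumours relative to the group's range: they lay between 12.33 and 12.35, so the gap to the nearest took up 0.81 of the range, above the critical value of 0.71 for 5 samples. The whole range was 1.11-fold. Of 25 sets of 5 values examined in this way (the 8 members, the medians of 16 lists, and the precursor minus myelin difference), this was the only one past that value, and chance alone passes about 1 in 20.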

How the results depend on the processing

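With another tumour left out, tumour 1 was highest for 6 to 7 members and tumour 5 lowest for 5 to 6. These counts cannot fall when another tumour is dropped, so they say nothing on stability. With libraries centred on their medians the counts were 6 and 5. Without tumour 1, tumour 15 was highest for 5 members and tumour 8 for 3. The number of members ranging over 2-fold was 1 to 2 with a tumour left out. The median deviation of the members in tumour 14 ran from -0.20 to 0.00089, the latter without tumour 1, and in tumour 5 it was -0.15 without tumour 1 against -0.30, and in tumour 8 it ran from -0.15 to -0.0081, the latter without tumour 1, against -0.088. Pdgfra minus Gpr17 ran from -0.24 (without tumour 8) to 0.15 with a tumour left out. Signs and sizes between genes depended on length. With no length subtracted, Cspg4 minus Pdgfrb was 0.74, Ptprz1 minus Ptn 0.24, Olig1 minus Bcas1 -0.75, Olig2 minus Pdgfra -1.52, Gpr17 minus Ptprz1 -0.91 and Nkx2-2 minus Cspg4 -1.72, and, with no change of sign, Pdgfra minus Gpr17 was 0.98, Ptprz1 minus Nkx2-2 3.61 and Bcas1 minus Mbp -1.71. With the longest transcript, Cspg4 minus Pdgfrb was 0.15, Olig1 minus Bcas1 -0.30, Olig2 minus Pdgfra -0.081 and Gpr17 minus Ptprz1 -0.28. Of 227 alternative values, 13 changed sign. The 227 include mean levels, SDs, counts and percentages, whose sign cannot change, so this is not the rate among signed differences. Another 3 values moved with no change of sign, all of them the number of members ranging over 2-fold. The exact sign-flip test cannot pass 0.05 with 5 tumours, so its p-values say nothing on stability. No analysis of paired samples was possible because the libraries form 1 group. The pairs tested were genes within a tumour.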
